A study of Mus musculus with 29 samples.

Results

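IRF8 binding was compared between microglia of postnatal day 14 (P14), with 3 libraries, and peritoneal macrophages, with 3 libraries, which are 6 of the 25 libraries with peak lists in the series. They were chosen by sample title. All 6 came from female mice of the IRF8-EGFP strain, in which IRF8 carries a green fluorescent protein tag, and an antibody against GFP was used for CUT&RUN. In CUT&RUN, micrococcal nuclease joined to protein A is brought to the tagged protein by the antibody, cuts the DNA beside it, and the freed fragments are sequenced. Every IRF8 library of the series carries the fusion. Each tissue has 1 IgG library as its control, and no drug or genotype differs between the 2 groups. The series also holds IRF8 lists of microglia from P9 (4 libraries) and from adult mice (3 libraries), and lists of PU.1, H3K27ac and H3K4me1 from adult wild-type and IRF8 knockout microglia. Only the wild-type ones were used here. The titles name peritoneal macrophages, while their source label names sorted microglia, and the title was followed. The general protocol gives 3 months as the age of all animals, which cannot hold for P14, and no other age is given for the peritoneal cells. Nothing in the labels says that replicates are separate animals, so p-values measure the spread between these libraries only.

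IRF8 is a transcription factor of myeloid cells that binds DNA weakly alone. It is recruited with PU.1 to composite ETS-IRF elements, and with other IRF or STAT proteins to interferon-response elements. Microglia are the resident macrophages of the brain. They express P2ry12, Tmem119, Sall1 and Siglech, and their adult program matures over the first postnatal weeks under TGF-beta. Large peritoneal macrophages instead depend on retinoic acid and GATA6.

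Sequences are shown for regions that separated the groups and held a composite ETS-IRF motif, GGAA and GAAA in that order with 2 bases of any kind between them, in the searched window of 201 bp. A region was called P14-only when it had a peak in at least 2 P14 lists and none in any peritoneal list, and peritoneal-only in the reverse case. Windows lie on the region's centre or on its strongest summit, on the plus strand of GRCm38.p6, and capitals mark the motif on either strand. The first 5 are P14-only and lie at genes of integrin signalling, transcription and innate sensing, or, for Ankrd54, among the 10 strongest P14-only regions. The last 3 are peritoneal-only.
Itgav (summit, chr2:83714683-83714883, intergenic): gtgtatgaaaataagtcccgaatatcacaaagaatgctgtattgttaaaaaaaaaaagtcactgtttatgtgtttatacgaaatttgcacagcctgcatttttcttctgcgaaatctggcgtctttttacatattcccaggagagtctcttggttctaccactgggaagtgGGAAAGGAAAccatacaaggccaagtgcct
Zeb2 (centre, chr2:45105997-45106197, intron): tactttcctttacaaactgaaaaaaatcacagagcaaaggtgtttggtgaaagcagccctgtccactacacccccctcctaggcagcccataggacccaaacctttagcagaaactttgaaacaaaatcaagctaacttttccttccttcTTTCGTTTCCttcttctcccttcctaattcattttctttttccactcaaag
Nlrp3 (centre, chr11:59562497-59562697, intron): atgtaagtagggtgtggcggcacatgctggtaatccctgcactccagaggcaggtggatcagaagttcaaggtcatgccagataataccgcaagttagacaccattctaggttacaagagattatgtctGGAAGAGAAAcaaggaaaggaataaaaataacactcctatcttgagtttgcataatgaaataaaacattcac
Nlrc4 (centre, chr17:74440592-74440792, intron): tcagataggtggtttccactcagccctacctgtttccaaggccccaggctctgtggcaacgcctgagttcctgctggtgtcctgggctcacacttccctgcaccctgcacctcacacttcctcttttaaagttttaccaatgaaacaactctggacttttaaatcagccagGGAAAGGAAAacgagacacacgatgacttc
Ankrd54 (centre, chr15:79063040-79063240, beside the transcription start): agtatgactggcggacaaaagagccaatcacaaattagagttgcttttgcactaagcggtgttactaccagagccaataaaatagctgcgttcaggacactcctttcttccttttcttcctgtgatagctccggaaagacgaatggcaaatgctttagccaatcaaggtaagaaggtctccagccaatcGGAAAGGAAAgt
Ltbp1 (summit, chr17:75128883-75129083, intron): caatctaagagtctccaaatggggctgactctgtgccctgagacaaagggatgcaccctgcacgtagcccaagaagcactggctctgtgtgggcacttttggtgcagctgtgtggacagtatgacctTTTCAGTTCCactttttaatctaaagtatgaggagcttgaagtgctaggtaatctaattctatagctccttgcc
Vsig4 (centre, chrX:96245037-96245237, intergenic): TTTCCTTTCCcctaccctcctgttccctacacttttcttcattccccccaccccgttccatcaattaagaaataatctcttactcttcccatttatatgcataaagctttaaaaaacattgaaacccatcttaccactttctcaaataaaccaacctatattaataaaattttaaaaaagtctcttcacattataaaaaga
Gm2115 (centre, chr7:84551636-84551836, intron): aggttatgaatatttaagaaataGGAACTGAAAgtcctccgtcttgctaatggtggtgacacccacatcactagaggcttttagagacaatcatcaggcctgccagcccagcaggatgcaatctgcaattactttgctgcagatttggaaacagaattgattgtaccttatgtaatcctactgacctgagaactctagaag

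At Nlrp3, the gene of an inflammasome sensor, the authors' fold enrichment over the IgG control was 5.0, 11.2 and 4.97 in P14 replicates 1 to 3, and no peritoneal list had a peak in that region. The same region was listed in all 3 adult libraries, at 10.4, 10.0 and 10.6, and in no P9 library. The Itgav region, near an integrin subunit gene, was listed at 5.41 and 9.39 in P14 replicates 1 and 2 and at 8.82, 9.53 and 6.45 in the adult. The Zeb2 region, in an intron of a transcription factor gene, was listed at 6.66 and 3.33 in the same P14 libraries. The Ankrd54 region differed from these in that its listed folds, taken against different controls, were lower in adult than in P14 lists, at 4.34, 3.39 and 4.80 against 12.5, 15.5 and 13.9, and it lay in no adult PU.1, H3K27ac or H3K4me1 region. The peritoneal-only windows at Ltbp1 and Gm2115 had no peak in any P9, P14 or adult list.

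The lists differed in length and depth within both groups. P14 replicates 1 to 3 held 7956, 19238 and 7931 regions, counting each chromosome, start and end once, and the peritoneal replicates held 23162, 16991 and 9787. Peritoneal lists were 1.47-fold longer on the geometric mean (log2 difference of P14 minus peritoneal -0.56), which did not exceed the spread (exact two-sided permutation test, p = 0.3, where the smallest possible p is 0.1). The log2 difference was -0.038 at −log10 p of at least 10, and it ran from -0.98 without P14 replicate 2 to -0.27 without peritoneal replicate 1. The libraries held 13865687, 17792413 and 24365583 fragments at P14 and 19408860, 21529744 and 15795402 in peritoneal macrophages. The peak caller scaled each P14 library to its control of 12715304 fragments. The peritoneal control held 21522545, so those libraries were called at 15795402 to 21522545 fragments, and the effective depth of the groups did not overlap. Absence of a P14 peak was therefore read at a lower depth than absence of a peritoneal peak, and the part of depth in the differences was not tested.

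**Figure D1:**
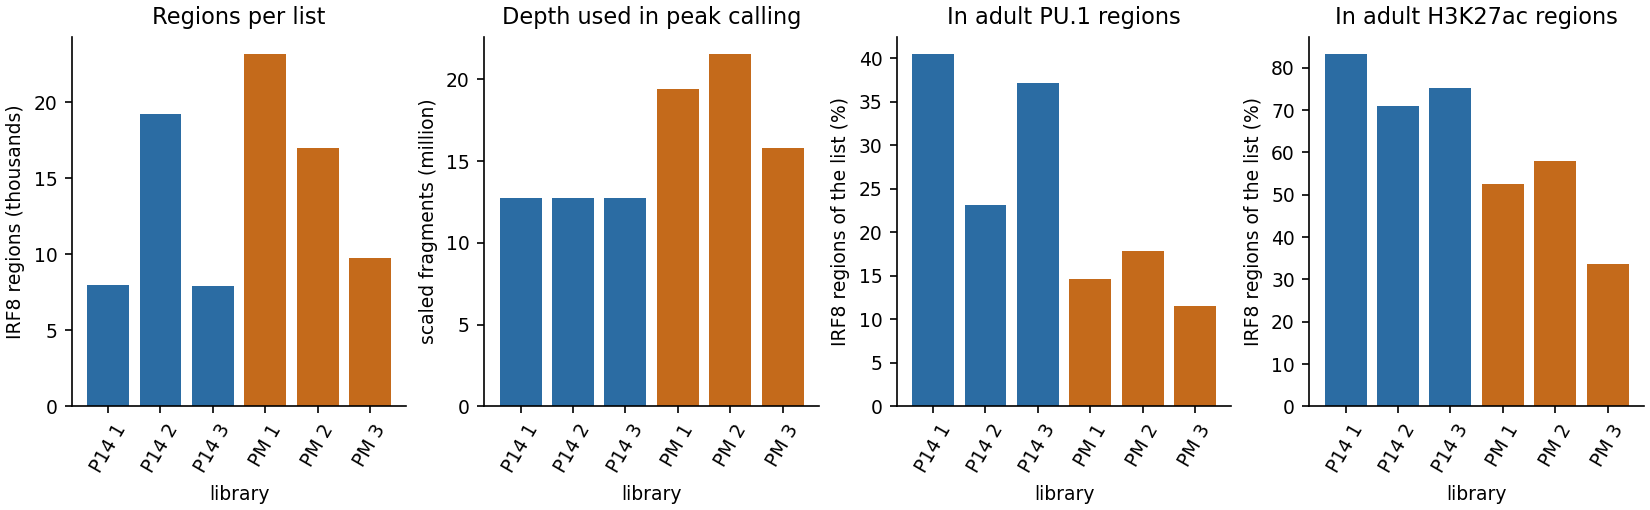
IRF8 regions per list, fragments after scaling to the control, and the percent of each list in adult PU.1 and in adult H3K27ac regions. P14 1 to 3 are the P14 microglia replicates (blue) and PM 1 to 3 the peritoneal macrophage replicates (orange); bars are single libraries, and the P14 libraries lie above all peritoneal libraries in both right panels.

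Peritoneal replicate 3 stood apart from the other peritoneal libraries. The Jaccard index was taken over regions. It is the merged regions with a peak in both of 2 lists, as a percent of all merged regions of the 2. It was 39.2% between peritoneal replicates 1 and 2. It averaged 11.6% between replicate 3 and those, and 30.5% among the P14 libraries. P14 lists shared 19.2% on average with peritoneal replicates 1 and 2 and 8.95% with replicate 3. Replicate 3 belongs to batch 2 per the titles, replicates 1 and 2 to batch 1, and no batch is given for P14, so batch and group cannot be told apart. Within groups the index averaged 25.7% and between groups 15.8%, a difference of 9.91 percentage points (exact one-sided permutation test over 10 splits, p = 0.1, the smallest possible). Without peritoneal replicate 3 that difference was 13.5 points. Of the peritoneal-only regions described next, 4995 had peaks in both replicates 1 and 2. Without P14 replicate 1 the Jaccard difference was 6.15 points (exact permutation p = 0.2).

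**Figure D2:**
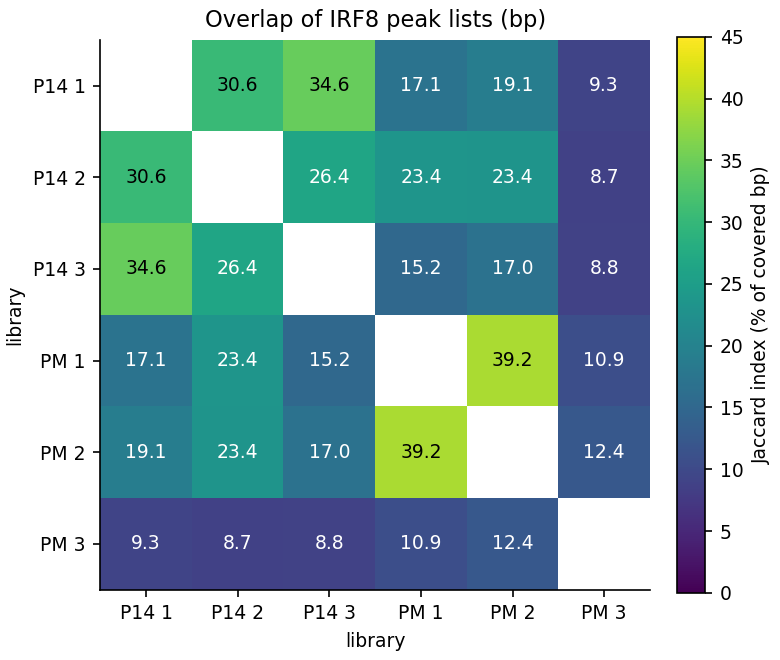
Jaccard index (percent of merged regions that hold a peak of both lists) for each pair of the 6 lists, where PM is peritoneal macrophages. The title and colour label of the picture name base pairs, but merged regions were counted. The 3 P14 lists and peritoneal replicates 1 and 2 form brighter blocks, and the row of PM 3 stays between 8.7 and 12.4 throughout.

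P14 and peritoneal sites overlapped in part, and the share of each group's sites found in the other changed with list length and with the libraries left out. Overlapping peaks of a group were merged, and regions supported by 2 or more of its 3 lists make up the consensus. The P14 consensus held 8133 regions and the peritoneal consensus 12062. Of the P14 regions 4336 (53.3%) overlapped the peritoneal consensus, 1472 had a peak in 1 peritoneal list only, and 2325 (28.6%) were P14-only. Of the peritoneal regions 35.6% overlapped the P14 consensus, and 5439 (45.1%) were peritoneal-only. Leaving out peritoneal replicate 3 left 2407 P14-only and 4991 peritoneal-only regions. Other omissions moved the counts more. With 1 library left out, both remaining lists of its group had to hold a peak. That group's own counts fall by this stricter rule, apart from any weight of the library itself. Without peritoneal replicate 1 or 2, each peritoneal consensus region needed a peak in replicate 3. Without P14 replicate 2, the longest P14 list, 868 P14-only regions were left, and 1451 without P14 replicate 1. Without peritoneal replicate 1 or 2, 922 or 1068 peritoneal-only regions were left, fewer than the 3288 or 2743 P14-only regions, and the share of P14 regions in the peritoneal consensus was 18.8% or 19.9%, below the reverse share of 50.9% or 49.3%. The reverse share was 21.4% without P14 replicate 2. In lists of equal length, P14-only and peritoneal-only regions numbered 2654 and 2391. The P14 share in the peritoneal consensus was then 39.3% and the reverse share 43.9%, so the order of the groups turned for counts and shares alike. At −log10 p of at least 10 the P14 share was 44.0%, and with peaks in all libraries required 26.96%. With the strictest reading, a peak in all 3 lists of one group and in none of the other, 825 of 46893 merged regions (1.76%) were P14 and 781 (1.67%) were peritoneal. In bulk material, binding in fewer cells and weaker binding in each cell cannot be told apart.

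Most P14-only consensus regions were also adult microglia regions. In the adult IRF8 consensus lay 86.8% of P14-only and 96.2% of shared regions, but 18.4% of peritoneal-only regions. No adult list had a peak at 63 P14-only regions and at 3472 (63.8%) peritoneal-only regions. Over all regions of a P14 list without a peritoneal peak, the adult share was lower, at 68.7%, 44.8% and 52.4% in replicates 1 to 3. At P9 the respective shares were 5.94%, 24.5% and 0.0552%, with a P9 consensus of only 1374 regions. Adult PU.1, the ETS factor that pairs with IRF8, covered 30.6% of P14-only, 53.5% of shared and 2.65% of peritoneal-only regions. By library, over all P14 regions without a peritoneal peak, it covered 22.9%, 11.5% and 17.7%. H3K27ac, a mark of active enhancers and promoters, covered 84.2%, 89.5% and 40.5%, and H3K4me1, a mark of enhancers, covered 94.0%, 94.7% and 63.9%. P14-only regions lay within 1 kb of a transcription start in 11.3% of cases, against 27.1% of shared and 17.0% of peritoneal-only regions. No PU.1 or histone list of peritoneal macrophages was used, so these shares describe microglial chromatin alone. Without P14 replicate 2 the P14-only share in the adult consensus was 95.7% and the peritoneal-only share 32.6%, and the peritoneal-only share in PU.1 regions was 6.41%. That share was 4.03% without peritoneal replicate 2. In lists of equal length, the peritoneal-only share in PU.1 regions was 5.19% and that in the adult consensus 28.4%.

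**Figure D3:**
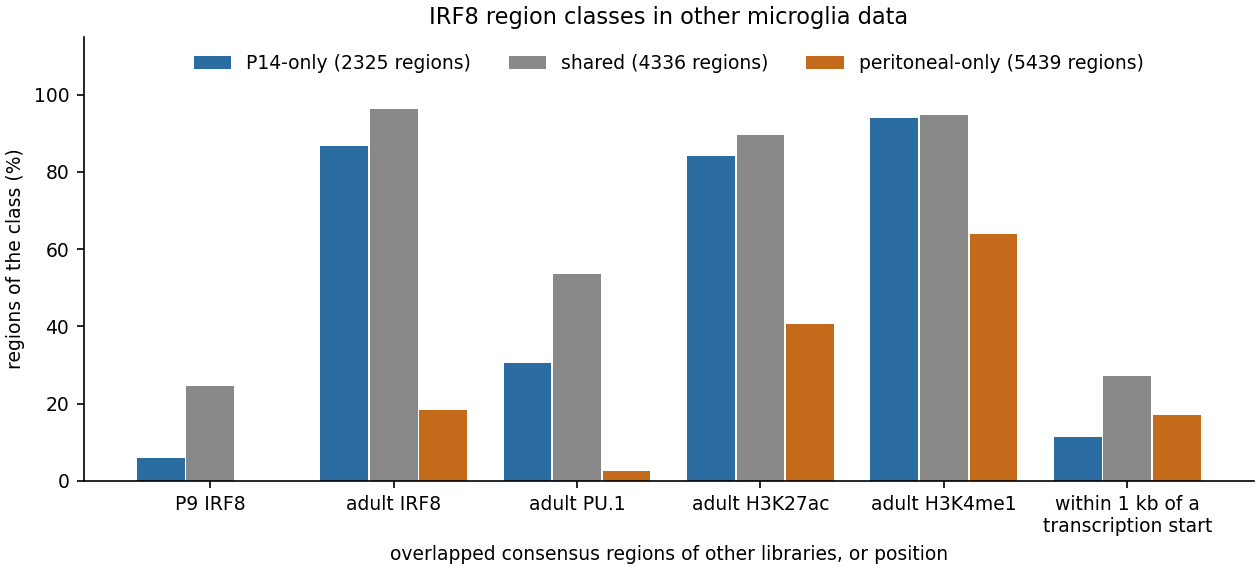
Percent of P14-only (blue), shared (grey) and peritoneal-only (orange) IRF8 regions that overlap the consensus of P9 or adult IRF8, adult PU.1, adult H3K27ac or adult H3K4me1, or lie near a transcription start. P14-only and shared regions are covered by adult IRF8 in 86.8% and 96.2% of cases, and peritoneal-only regions in 18.4%.

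By library, PU.1 and H3K27ac shares were higher at P14, and shares near transcription starts overlapped. Of all regions in a list, 40.4%, 23.2% and 37.1% lay in adult PU.1 regions for P14 replicates 1 to 3 and 14.6%, 17.8% and 11.6% for the peritoneal replicates. The groups did not overlap (33.6% ± 9.16 against 14.7% ± 3.13, SD, n = 3 each; exact two-sided permutation test, p = 0.1). H3K27ac shares were 83.2%, 70.9% and 75.3% at P14 and 52.5%, 58.1% and 33.7% in peritoneal lists (76.4% ± 6.23 against 48.1% ± 12.8; exact permutation p = 0.1). Shares within 1 kb of a transcription start overlapped (21.4% ± 0.638 against 20.1% ± 2.42; exact permutation p = 0.6). With 3 libraries a group no exact test can go below 0.1. Adjusted over the 5 shares tested, with both motif shares given further on, the permutation p was 0.167 for PU.1, 0.167 for H3K27ac and 0.6 for transcription starts. Without peritoneal replicate 3 the PU.1 and H3K27ac differences were 17.4 and 21.2 percentage points, against 18.9 and 28.4 with it.

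Strength and these overlaps moved together. Each region was ranked within its lists by the authors' −log10 p. Among P14-only regions between percentiles 75 and 100, 52.5% lay in PU.1 regions, 23.9% in the P9 consensus and 98.2% in the adult consensus, over 339 regions. Between percentiles 0 and 25, over 223 regions, the shares were 10.8%, 0.448% and 70.9%. The shared class was stronger, with a median percentile of 66 against 51.5, and 60.1% of its regions were in all 3 P14 lists against 35.5% of P14-only regions.

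Part of the microglia-only sites of the adult were already in the P14 consensus. Microglia-only sites are here the 6761 adult consensus regions with no peak in any peritoneal list. Of these, 1855 (27.4%) lay in the P14 consensus, 11.2% in all 3 P14 lists, 60.7% in at least 1, and 2654 (39.3%) in none. By library the share was 23.8%, 55.3% and 21.1% for P14 replicates 1 to 3, so the longest list reached far more of them. Of the 6693 adult regions that lay in the peritoneal consensus, 61.7% were in the P14 consensus, and by library 55.2%, 82.5% and 50.1%. At P9 the shares were 2.01% and 16.0%. Leaving out P14 replicate 2 gave a microglia-only share of 11.2%, and leaving out P14 replicate 1 gave 17.8%. Both remaining P14 lists then had to hold a peak, which lowers the share by the rule itself. Without adult replicate 2, where sites needed a peak in both remaining adult lists, the share was 46.3%. With every list reduced to its 7931 strongest regions the share was 53.7%. The adult lists were cut as well, so this is a share of another set of sites, drawn from the strongest adult regions.

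The share bound at P14 followed the strength of the adult region. In bins of 20 percentile points, from the weakest to the strongest, it was 5.1%, 8.8%, 20.8%, 40.8% and 74.6% for microglia-only sites. For adult sites in the peritoneal consensus it was 11.4%, 20.1%, 38.9%, 62.7% and 92.4%. Within each bin the microglia-only sites were thus bound at P14 less often, a difference that was not tested, nor was the part of depth in it. Microglia-only sites in the P14 consensus lay in adult PU.1 regions in 34.4% of cases, those without any P14 peak in 5.12%. H3K27ac covered 86.5% and 65.9%, and 11.1% and 18.7% lay within 1 kb of a transcription start. The composite motif was present in 7.82% and 5.61%. The median adult strength percentile was 69.9 and 40.5.

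**Figure D4:**
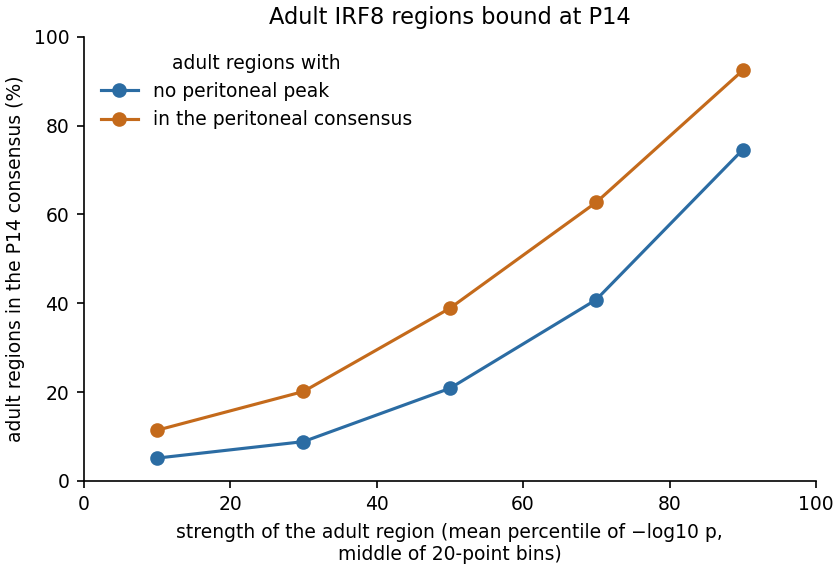
Percent of adult IRF8 regions in the P14 consensus, by the strength of the adult region (mean within-list percentile of −log10 p, in bins of 20 points). The microglia-only sites (blue) climb from 5.1% to 74.6% and stay below the sites in the peritoneal consensus (orange), which climb from 11.4% to 92.4%.

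Strong microglia-only sites were found on both sides of that division. A peak in all 3 adult lists and all 3 P14 lists was present at 604 of them. The strongest lay in an intron of Rab3ip, which encodes a regulator of vesicle traffic, at chr10:116923701-116925308, with folds of 24.7, 22.6 and 19.6 in the adult and 17.9, 15.5 and 9.95 at P14. Next in rank were a site in an intron of Elmo1, a regulator of engulfment, and a site nearest to Npnt. A peak in all 3 adult lists and no P14 list was present at 520. The strongest of these lay between genes, nearest to the start of Itga8, an integrin gene, at chr2:12059354-12061073, with adult folds of 21.6, 21.3 and 11.9. An intergenic site nearest to the start of App, the amyloid precursor gene, at chr16:85277763-85278427, was the third, with 11.4, 10.5 and 11.1. Of the 10 strongest sites without a P14 peak, 1 lay in an adult PU.1 region and 3 in H3K27ac regions. Of the 10 strongest with all 3 P14 peaks, 7 and 9 did. These sites were ranked by a rule set after the data had been seen.

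Genes were scored by peaks within the gene or 10 kb of it, so neighbouring genes can share a peak. Of 21911 protein-coding genes, 29.1% had a peak in at least 2 P14 lists and 39.8% in at least 2 peritoneal lists, and 22.9% in both. A gene with peaks in at least 2 lists of one group and in none of the other was called P14-only (460 genes, 2.1%) or peritoneal-only (1636 genes, 7.47%). At least 1 P14-only region was present at 8.59% of genes and at least 1 peritoneal-only region at 15.9%. Peaks in at least 2 adult lists and no peritoneal list were present at 1371 genes (6.26%). Of those, 402 (29.3%) had peaks in at least 2 P14 lists and 443 (32.3%) in none. The gene counts changed with the libraries left out. A peak in both remaining lists of the reduced group was then needed, which by itself lowers that group's count. P14-only genes numbered 173 without P14 replicate 2, 305 without P14 replicate 3 and 995 without peritoneal replicate 1. Peritoneal-only genes numbered 3378 without P14 replicate 2, 581 without peritoneal replicate 1 and 743 without peritoneal replicate 2. In lists of equal length P14-only genes numbered 1018 and peritoneal-only genes 954, and the order of the groups turned.

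Homeostatic microglia genes were bound at P14 almost throughout, and 19 of 30 carried a P14-only region, against 8.59% of all genes. Of 30 genes, 28 had peaks in at least 2 P14 lists and 18 in at least 2 peritoneal lists, against 29.1% and 39.8% of all genes. At least 1 peritoneal-only region was present at 8, against 15.9% of all genes. Only 3 were P14-only as whole genes, and none was peritoneal-only, against 2.1% and 7.47% of all genes. Without P14 replicate 2, both other P14 lists had to hold the peak, and 11 genes had a P14-only region. Without peritoneal replicate 3 the count was 19. Of the 67 microglia-only adult sites at these genes, 24 (35.8%) lay in the P14 consensus, against 27.4% of all such sites, and 22 had no P14 peak. Many of these markers are also bound in peritoneal macrophages, at other positions or at the same ones.

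Siglech, which encodes a sialic acid-binding lectin of microglia, was the clearest case, with no peritoneal peak. Its strongest peak had folds of 15.8, 16.7 and 10.8 at P14. It lay between genes at chr7:55784154-55785401, 9624 bp from the nearest start, that of Tubgcp5, and was listed in all 4 P9 and all 3 adult libraries. A weaker region lay in an intron of Siglech at chr7:55767798-55769059, 535 bp from its start, at 5.31, 6.87 and 5.73. Of 5 microglia-only adult sites at Siglech, 3 were in the P14 consensus. The other P14-only genes were Fcrls, an Fc receptor-like gene, at 5.41, 9.03 and 3.51, and Lag3, which encodes an inhibitory receptor, at 8.33, 9.76 and 5.56. All 6 microglia-only adult sites at Lag3 had a peak in at least 1 P14 list, and 3 were in the consensus.

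The purine receptor gene P2ry12 was strongly bound in both groups, with 2 P14-only and 4 shared regions. Its strongest peak was 11.3, 26.4 and 5.85 at P14 and 16.9, 10.6 and 10.2 in peritoneal macrophages, so the groups overlapped. Cx3cr1, the receptor for the neuronal chemokine fractalkine, had 3 P14-only regions, 1 shared and 1 peritoneal-only region. In an intron of Cx3cr1, a P14-only region at chr9:120033648-120034890 was listed at 9.81, 9.35 and 6.0, and another at chr9:120037262-120038152 at 5.83, 11.2 and 4.68. Another, listed in P14 replicates 1 and 2, lay 84 bp from a start. Of 7 microglia-only adult sites at Cx3cr1, 3 were in the P14 consensus and 2 had no P14 peak. Csf1r, the receptor for the growth factors that keep microglia alive, had 2 P14-only regions and 1 shared region. Its strongest peak reached 17.1, 17.7 and 7.32 at P14 against 8.6, 9.48 and 7.09. Rtn1, a reticulon gene, carried a P14-only intronic site at 22.1, 34.3 and 11.4, and had 1 peritoneal peak elsewhere, at 3.67 in replicate 2.

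Single genes of the homeostatic list differed in how many P14 libraries listed them. Sall1, a transcription factor gene that maintains microglial identity, had no peak in P14 replicate 1 and peaks of 7.95 and 4.68 in replicates 2 and 3. It had peaks in all 3 adult lists, in no P9 list and in peritoneal replicate 3, at 5.12. No P14-only or shared region lay at Sall1. Of its 3 microglia-only adult sites, none was in the P14 consensus and 2 had no P14 peak. Tmem119, a membrane protein gene used as a microglia marker, had peaks of 5.89 and 5.27 in P14 replicates 2 and 3, none in replicate 1, and 1 peritoneal peak, of 3.00. It carried 1 P14-only region, listed at 3.97 and 5.27. No list of either group had a peak at Sall3, and all 3 adult lists did. Mef2c, a transcription factor gene with 17.1, 20.2 and 8.78 at P14, had peaks in all 4 P9, all 3 adult and all 3 peritoneal lists. It carried 1 P14-only region, in an intron, at 4.34 and 3.87 in replicates 2 and 3, with peaks in 2 adult lists. None of its 3 microglia-only adult sites had a P14 peak.

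**Figure D5:**
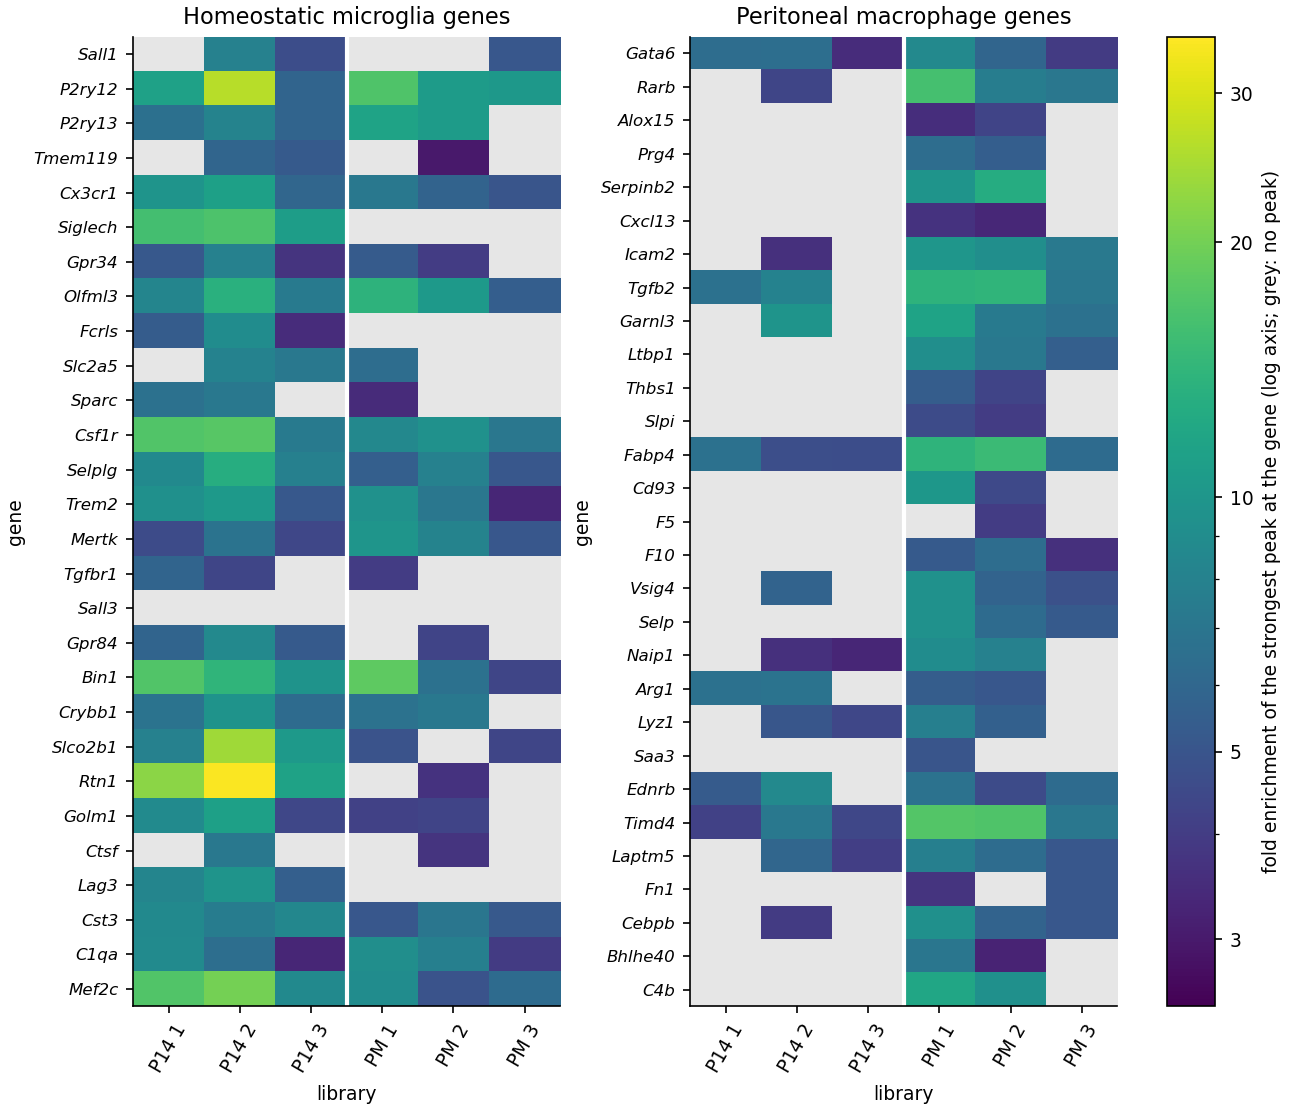
Fold enrichment (log colour axis, grey for no peak) of the strongest peak within 10 kb of homeostatic microglia genes (left, 28 of 30 shown) and peritoneal macrophage genes (right) in the 6 lists; PM is peritoneal macrophages. Siglech, Fcrls and Lag3 are grey in every PM column, and 13 genes on the right are grey in every P14 column and coloured in at least 2 PM columns.

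Peritoneal macrophage genes showed the reverse pattern. Of 29 genes, 27 had peaks in at least 2 peritoneal lists and 9 in at least 2 P14 lists, against 39.8% and 29.1% of all genes. At least 1 peritoneal-only region was present at 23 genes, against 15.9% of all genes, with 67 regions in all, and no gene had a P14-only region. As whole genes, 13 were peritoneal-only, against 7.47% of all genes, and none was P14-only. They were Alox15, Prg4, Serpinb2, Cxcl13, Ltbp1, Thbs1, Slpi, Cd93, F10, Selp, Fn1, Bhlhe40 and C4b. Of these, Thbs1 had peaks in all 3 adult lists, Ltbp1 and Fn1 in 1, and the others in none. Without peritoneal replicate 3, 22 genes had a peritoneal-only region and 12 were peritoneal-only. Without replicate 1 these counts were 7 and 3, and without replicate 2 they were 10 and 4. In both cases a peak in replicate 3 was then required. In lists of equal length 14 genes had a peritoneal-only region.

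Selp, the gene of P-selectin, had peaks of 9.53, 6.29 and 5.29 in the peritoneal lists and none in P9, P14 or adult microglia. Ltbp1, which encodes a binding protein of latent TGF-beta, carried 13 peritoneal-only regions, and its strongest peak was 9.19, 7.19 and 5.56. Serpinb2, a protease inhibitor gene, was listed at 9.77 and 12.8 in replicates 1 and 2 only, as were Alox15, a lipoxygenase gene, at 3.53 and 4.28, and Cxcl13, a chemokine gene, at 3.69 and 3.36. None of these genes had a P14 peak in any library. Icam2, an adhesion molecule gene, was listed at 10.0, 9.23 and 7.30, against 1 P14 peak of 3.61. Rarb, a retinoic acid receptor gene, had 9 peritoneal-only regions and 16.0, 7.64 and 7.09, against 3 P14 peaks, all in replicate 2, the strongest at 4.34. Rarb also had peaks in all 3 adult lists.

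Gata6, the factor that defines large peritoneal macrophages, was bound in both groups. Its strongest peak was 8.67, 5.94 and 3.94 in peritoneal lists and 6.45, 6.50 and 3.51 at P14, with overlap between the groups. It carried 1 shared and 2 peritoneal-only regions. A peak near a gene thus did not by itself mark the tissue in which the gene defines identity, and no expression was measured here.

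Markers of border macrophages, which line the brain's surfaces and vessels, were read next. Of 16 genes, 14 had peaks in at least 2 peritoneal lists, 7 in at least 2 P14 lists and 11 in at least 2 adult microglia lists, against 39.8%, 29.1% and 48.3% of all genes. Peritoneal-only regions were present at 10, against 15.9% of all genes, and P14-only regions at none. Peritoneal-only as whole genes were 5 of the 16, Cd163, Ms4a7, Cbr2, F13a1 and Clec12a, against 7.47% of all genes. Adult microglia lists had peaks at F13a1 in 3 libraries, at Cbr2 in 2 and at Ms4a7 in 1. At Cd163, a scavenger receptor gene, the peritoneal folds were 18.6, 16.2 and 5.51. At Clec12a, a lectin receptor gene, they were 15.1 and 11, with none in replicate 3. Mrc1 and Lyve1, which also mark border macrophages, were bound in all 6 lists, Mrc1 at 9.16, 14.1 and 7.90 at P14 and 21.4, 12.3 and 7.01 in peritoneal macrophages. Among 10 genes of small peritoneal and monocyte-derived macrophages, Retnla and Irf4 were peritoneal-only, again against 7.47% of all genes. Ccr2, a chemokine receptor gene of monocytes, was listed in all 6 libraries, at 7.08, 10.8 and 4.97 at P14 and 6.60, 5.50 and 5.51 in peritoneal lists.

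Lineage factors and receptors common to macrophages were mostly bound in both groups. Of 26 genes, 20 had peaks in at least 2 lists of each group, against 22.9% of all genes. P14-only regions lay at 8 of the 26 and peritoneal-only regions at 11, against 8.59% and 15.9% of all genes. Spi1, which encodes PU.1, was listed at 6.66, 12.6 and 6.73 at P14 and 6.23, 5.62 and 3.72 in peritoneal macrophages, with 3 shared regions and no group-specific one. Irf8 itself was listed at 5.0, 5.42 and 5.85 at P14 and at 4.49 and 4.33 in peritoneal replicates 1 and 3, with no consensus region shared. Klf2, a factor of quiescent macrophages, was the only peritoneal-only gene of the list, at 7.94, 8.25 and 3.64. At Batf3, a bZIP factor gene that is a partner of IRF8, P14 lists reached 13.6, 23.9 and 7.49 and peritoneal lists 6.48, 5.75 and 4.73. At Bach1, a bZIP repressor gene, they reached 18.6, 19.4 and 8.52 and 7.71, 8.72 and 7.41. The folds refer to different controls and depths, so no gap between them was tested.

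In the TGF-beta pathway, which microglia need for their adult state, 10 of 15 genes had peaks in at least 2 lists of each group. Over all genes that share was 22.9%. The ligand gene Tgfb1 and the receptor gene Tgfbr2 carried 4 shared regions each. P14-only regions lay at 3 of the 15 genes, Smad3, Skil and Itgav, and peritoneal-only regions at 2, against 8.59% and 15.9% of all genes. Of 18 microglia-only adult sites at these genes, 1 was in the P14 consensus and 8 had no P14 peak, where 27.4% and 39.3% of all such sites did. Smad4 was peritoneal-only against P14, at 3.69 and 5.12 in replicates 1 and 3, and had peaks in all 3 adult lists.

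Interferon genes were shared as well. Of 24 interferon regulatory factor and interferon-stimulated genes, 19 had peaks in at least 2 lists of each group, against 22.9% of all genes. Irf5 had 25.8, 35 and 17 at P14 and 18.6, 13.8 and 7.57 in peritoneal lists. Rsad2, an antiviral enzyme gene, was peritoneal-only, at 9.31 and 5.2 in replicates 1 and 2, and peritoneal-only regions lay at 7 genes of the list and P14-only regions at 2, where 15.9% and 8.59% of all genes had one. Irf2 carried 7 peritoneal-only and 4 shared regions.

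Toll-like receptor and inflammasome genes were bound at P14 in 19 of 20 cases and in peritoneal macrophages in 16, counting peaks in at least 2 lists, against 29.1% and 39.8% of all genes. P14-only regions lay at 5 of these genes and peritoneal-only regions at 7, against 8.59% and 15.9% of all genes. No gene of the list was called P14-only or peritoneal-only. Only 5 microglia-only adult sites lay at these genes. Of them 4 were in the P14 consensus, against 27.4% of all such sites, and all 5 had a P14 peak, against 60.7%. At Tlr9, the gene of a receptor for unmethylated DNA, a P14-only intergenic region was listed at 6.92, 16.1 and 6.44. The Naip genes are near-identical copies, so the assignment of reads among them is uncertain.

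Among MHC class II genes, Ciita, the master regulator of that pathway, had no P14 peak. It was listed at 7.56, 2.71 and 3.88 in peritoneal lists, in all 3 adult lists and in 1 P9 list, and it carried 2 peritoneal-only regions. H2-DMb1, a peptide-loading gene, was P14-only at 5.32, 6.13 and 3.73. The P14-only region behind that call lay 356 bp from the start of its neighbour H2-DMb2 and was counted for H2-DMa and H2-DMb2 as well, both of which had peaks in both groups. Of 19 disease-associated microglia genes, 10 had peaks in at least 2 P14 lists and 12 in at least 2 peritoneal lists, against 29.1% and 39.8% of all genes. P14-only regions lay at 2 of them, near the share of 8.59% over all genes, and peritoneal-only regions at 5, where 15.9% of all genes had one. Itgax, an integrin gene, and Cd63, a tetraspanin gene, were P14-only, and none was peritoneal-only, where 2.1% and 7.47% of all genes were. Itgax was listed at 9.58, 8.67 and 6.14 and carried 2 P14-only regions, 1 of them 430 bp from its start, both also in all 3 adult lists. Among 14 complement genes, C3 and C4b were peritoneal-only, and the C1qa, C1qb and C1qc cluster, whose windows overlap, was bound in all 6 lists.

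Lists for other cell types were read for what the sorted cells could hold. Of 10 B cell genes, 6 had peaks in at least 2 peritoneal lists, 3 in at least 2 P14 lists and 9 in at least 2 adult microglia lists, against 39.8%, 29.1% and 48.3% of all genes. Ebf1 and Cd79a were peritoneal-only, though listed in 3 and 2 adult libraries, Ms4a1 was listed at 12.5, 9.78 and 5.91 against 1 P14 peak of 5.42, and Cd22 and Vpreb3 had no peak in the 6 lists. Of 8 T cell genes, Cd3e, Cd3d, Cd8a, Tcf7 and Bcl11b had no peak in either group, and Lck was P14-only at 5.73, 10.5 and 3.8. Among 10 neutrophil and mast cell genes S100a8 and Elane were peritoneal-only, while S100a9, Ly6g, Mpo, Cpa3 and Mcpt4 had none. Of 14 neuron and macroglia genes, 8 had no peak, among them Snap25, Gad1, Aqp4, Olig2 and Sox10. P14-only regions lay at 2 of the 14 and peritoneal-only regions at 4, against 8.59% and 15.9% of all genes. As whole genes, 2.1% of all genes were called P14-only and 7.47% peritoneal-only. Slc1a3, a glutamate transporter gene of astrocytes, carried 4 P14-only regions, the strongest at 7.93, 10.6 and 8, and 1 peritoneal-only region, at 3.27 and 5.81 in replicates 1 and 2. Mbp, a myelin gene, had 2 of each class. Rbfox3, a neuronal gene, had 2 peritoneal-only regions and Mog, a myelin gene, 1, while Gfap, an astrocyte gene, was peritoneal-only. IRF8 is itself expressed in B cells, and the part of such cells in the peritoneal lists was not tested.

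Of the 10 strongest P14-only regions, 9 lay more than 1 kb from a transcription start, and the region at Ankrd54 lay 206 bp from one. P14-only regions in all 3 P14 lists were ranked by their mean percentile. First was an intergenic region at chr13:43919467-43920665, 135325 bp from the nearest start, that of Cd83, an activation marker gene, with folds of 23.3, 45.2 and 22.5. It was listed in all 4 P9 and all 3 adult libraries. Then came introns of Arhgap18 at 16.4, 19.6 and 14.4, and of Rtn1. Intergenic regions with the starts of Wscd1 and Spock1 as the nearest, at 103931 and 65576 bp, and regions in Spsb1, beside Siglech, in Nr3c1, the glucocorticoid receptor gene, in Kcnk9 and at Ankrd54 completed the 10. All 10 were in all 3 adult lists, 7 lay in adult PU.1 regions and 9 in H3K27ac regions.

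Of the 10 strongest peritoneal-only regions, 4 lay in introns of Mcm9, B3gnt2, Nr2c2 and Gm2115. The others lay between genes, at 12131 to 374814 bp from the nearest start, those of Vmn2r97, 1700056E22Rik, Cldn14, Triqk, Mmadhc and Trpm1. The strongest, between genes at chr17:18967573-18969354, was listed at 20.4, 18.4 and 9.03. None of the 10 was in a P9 list, and none lay in an adult PU.1 region. A peak in 1 or 2 adult lists was present at 4 of them, those at Cldn14, Mcm9, Nr2c2 and Trpm1, and 36.2% of all peritoneal-only regions had a peak in at least 1 adult list.

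Motifs were searched on both strands in 201 bp at the centre of each region. The composite motif, GGAA and GAAA parted by 2 bases, was found in 8.65% of P14-only, 8.97% of shared and 6.03% of peritoneal-only regions, in 1.94%, 2.19% and 2.25% of windows 1 kb away, and in 1.76% of all RefSeq promoters cut to that length. The interferon-response motif, GAAA and GAAA with 2 bases between, was found in 2.88%, 5.07% and 7.19%, against 2.84%, 3.11% and 3.03% at 1 kb and 2.07% of promoters. P14-only regions were thus at the level of their flanks for this motif. Offset copies of both motifs can share letters. The ETS core GGAAGT, which can lie within the composite motif, was present in 30.5%, 29.3% and 23.6%, against 12.3%, 11.7% and 11.8% at 1 kb and 18.0% of promoters.

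By library, the composite motif was in 8.01%, 6.26% and 7.55% of P14 regions and in 5.28%, 5.74% and 4.0% of peritoneal regions, without overlap (7.27% ± 0.907 against 5.0% ± 0.903, SD, n = 3 each; exact two-sided permutation p = 0.1, adjusted 0.167). The interferon-response motif was in 3.81%, 3.71% and 3.57% against 5.27%, 5.09% and 3.00%. Those groups overlapped through peritoneal replicate 3 (exact permutation p = 0.4, adjusted 0.5), and without it the difference of P14 minus peritoneal was -1.48 percentage points (exact permutation p = 0.1). In lists of equal length the composite difference was 1.56 percentage points in place of 2.27 (exact permutation p = 0.3). With windows on the strongest summit in place of the centre it was 1.0 (exact permutation p = 0.1), and the interferon-response difference was -0.24 in place of -0.76 (exact permutation p = 0.5).

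Other motifs divided the classes differently. The MAF half-site TGCTGAC was in 5.94% of P14-only, 3.85% of shared and 3.57% of peritoneal-only regions, against 2.65%, 2.71% and 2.73% at 1 kb and 3.35% of promoters. The C/EBP motif TTGCNNAA was in 8.39%, 9.06% and 12.6%, against 7.48%, 8.06% and 8.71% at 1 kb and 6.82% of promoters. The AP-1 motif TGANTCA was in 6.32%, 7.56% and 9.43%, against 5.61%, 6.10% and 5.82% at 1 kb and 5.39% of promoters. The GATA motif AGATAA was in 12.6% of peritoneal-only regions, which was its level 1 kb away, 12.4%. In P14-only regions it was in 8.13% at the centre and 10.8% at 1 kb, and 6.96% of promoters held it. MEF2 motifs, CTA and TAG parted by 4 bases, were in 3.53%, 3.18% and 3.38%, against 2.90%, 3.17% and 3.66% at 1 kb and 2.32% of promoters.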

How the data were processed

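CUT&RUN peak lists of 6 IRF8 libraries were compared, with P9 and adult IRF8 and adult wild-type PU.1, H3K27ac and H3K4me1 lists as references. Reads were handled with bcl2fastq, Trim Galore, Bowtie2, deepTools and MACS2 on mm10, per the submitters' processing notes. The authors called IRF8 peaks per library with MACS 2.2.7.1, per the file headers, from fragments with duplicates kept, at q 0.01 and a maximum gap of 640 bp, and scaled the larger of library and control down. The authors deposited for each peak its pileup signal, its fold enrichment over the control, and p and q as −log10 p-values. These values were used to describe, rank and filter peaks within a list. Folds printed side by side for several lists rest on different controls and depths, and no difference between them was tested. Duplicates kept means that PCR copies may add to a peak.

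Each chromosome, start and end was counted once, with its strongest summit, on the main chromosomes. Regions overlapped when sharing at least 1 bp. Genes came from GENCODE vM21 and promoters from RefSeq, both GRCm38.p6, the sequence behind mm10. Work was done in Python 3.11.15 with numpy 2.4.6, scipy 1.17.1, pandas 2.3.3 and pysam 0.24.0, and the steps were tested on simulated lists. Group differences were tested with exact permutation tests over libraries. Named were genes of the lists called group-only, the marker genes of a fixed list whatever their values, and the 10 strongest group-only regions present in all 3 lists. Further values were chosen after they were seen, including those of other list genes, the ranked adult sites, windows on region centres and printed regions at genes of all lists. The members and lists were chosen with earlier results of these data known. Of the listed genes, Clec7a and Nlrp1c-ps had no match in the annotation. Correlations of the deviations of same-numbered libraries of the groups were -0.0087, 0.0880 and 0.083. Those of differently numbered libraries ran from -0.101 to 0.0439. All were small, though those of replicates 2 and 3 were the highest, so a pairing by number was not settled. The libraries were treated as unpaired, and pairs were used in 1 alternative. Some genes and sequences are not reported here. Alternatives varied the threshold, list length, overlap, gene window and libraries.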

Additional observations from a re-analysis of the deposited data

How the results depend on the processing

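Over 180 comparisons of a result with an alternative, 133 stayed within the library spread, the threshold or 1.5 times a count, 46 moved and 1 changed sign; the causes were not tested. For results with a permutation test, p could not pass the threshold with so few libraries. Their label could change only by a turn of sign, so the tally does not measure how stable they were. That tally takes each result alone. The order between the groups turned for regions and shares in lists of equal length, with peaks in all libraries required and without peritoneal replicate 1 or 2, and for genes in lists of equal length and without peritoneal replicate 1. Leaving out 1 library gave ranges of 18.8 to 64.3% for P14 regions in peritoneal regions, 21.4 to 50.9% for the reverse, 868 to 3288 P14-only and 922 to 7407 peritoneal-only regions, 173 to 995 P14-only and 581 to 3378 peritoneal-only genes, and 11.2 to 46.3% of microglia-only adult sites bound at P14. They gave 11 to 19 homeostatic genes with a P14-only region, 7 to 24 peritoneal genes with a peritoneal-only region and 3 to 18 called peritoneal-only. They gave 86.5 to 95.7% (P14-only) and 17.9 to 32.6% (peritoneal-only) in the adult consensus, and 30.5 to 43.1% and 2.56 to 6.41% in PU.1 regions. With 1 library of a group left out, both remaining lists of that group had to hold a peak. Its counts fall by that stricter rule as well, and the part of the rule was not tested. Without peritoneal replicate 1 or 2, each peritoneal consensus region needed a peak in replicate 3. The difference in transcription start share, 1.24 points, became -0.0269 without peritoneal replicate 3 and reached 2.39 without another library. At −log10 p of at least 10 the share of P14 regions in peritoneal regions was 44.0%, with 1408 P14-only and 2312 peritoneal-only regions and 977 peritoneal-only genes. With peaks in all libraries required it was 26.96%, with 825 and 781 regions. In lists of equal length it was 39.3% and the reverse 43.9%, with 2391 peritoneal-only regions, 1018 P14-only and 954 peritoneal-only genes. Then 14 peritoneal genes had a peritoneal-only region, and 53.7% of microglia-only sites were bound, with the sites taken from adult lists cut to their strongest regions. There the peritoneal-only share in the adult consensus was 28.4%, and PU.1 shares were 39.4% for P14-only and 5.19% for peritoneal-only regions. With any P14 library in place of the consensus, 60.7% of microglia-only sites were bound. Requiring 50% overlap of the shorter region kept the 5 region results within those limits. Treated as pairs in a replicate block, same-numbered libraries gave the same log2 difference in region number, -0.56 (exact sign-flip permutation p = 0.5, smallest possible 0.25). Alternatives on gene lists and classes were added after seeing the data. Different controls and depths, a batch that 1 peritoneal library holds alone and PU.1 and histone lists from microglia alone limit all comparisons.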
